A study of Rattus norvegicus with 12 samples.

Results

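The 10 genes described here carry dietary fat through the absorptive cells of the intestine, and they were followed in rat colon on a high-protein and a normal-protein diet. They were taken as the array's gene spots named Cd36, Fabp1, Fabp2, Acsl5, Mogat2, Dgat1, Apob, Mttp, Apoa1 or Apoa4, 10 of the 21914 named genes on the array. The members were chosen by their known role, with earlier results of these same arrays in view: the lower Fabp2 on high protein, and the split of the arrays by the colon-position genes Hoxb13 and Hoxb6. What follows for these genes is therefore a description, and no count over them is independent evidence of a direction. In all, 6 replicate arrays came from male Wistar rats on the high-protein diet and 6 from male Wistar rats on the normal-protein diet, each fed for 6 weeks from a starting weight of 180 to 200 g. No other treatment is labelled, and the tissue of every sample is given as colonic epithelium. Total RNA of each sample was labelled with Cy3, a green fluorescent dye, and hybridised to 1 array of Agilent's whole rat genome design, so a level is the brightness of a spot. Nothing in the labels says that replicates came from separate animals, so p-values measure the spread between these samples, and the number of arrays limits the precision.

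Absorptive cells of the small intestine take up fatty acids and monoacylglycerol from the gut lumen and carry them bound to small cytosolic proteins. They activate the fatty acids with coenzyme A, rebuild triglyceride on the membrane of the endoplasmic reticulum, load it onto apolipoprotein B and secrete it as chylomicrons. Most dietary fat is absorbed before the colon, whose cells express some of the same genes. Hoxb13 is a homeobox gene of the most distal gut, and Hoxb6 is one of more proximal segments, so their levels bear on where along the colon a sample was taken.

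Levels are normalized log2 intensities, and a difference of 1 is a doubling of intensity. Of the gene spots, 42.67% to 55.86% per array were marked good by the scanner software, and no pair of arrays held identical intensities. All 15 colon epithelium markers were measured, with a summed linear level of 82500 to 132000 on high protein and 92900 to 121000 on normal protein. Of 18 small-intestinal markers, 17 were on the array and 5 were bright enough to test, while Lct (lactase), Mgam, Slc5a1, Slc2a5, Slc10a2, Gip and Xpnpep2 were marked good on no array. The summed level of the 17 markers was 2170 to 4590 on high protein and 2850 to 3170 on normal protein. Cyp3a9, at 9.04 to 11.36, was the highest of them on every array, and markers near background also add to the sum. Smooth muscle markers, 11 of 12 of them tested, were present on every array, at a summed level of 37800 to 81800 on high protein and 59900 to 82000 on normal protein. Normal protein replicate 6 stood apart. Its summed level of 10 adipocyte markers, 6 of them tested, was 73000, which is 9.62 times the next highest array. The adipocyte markers Lep and Plin1 were marked good on no array. Diet differences of the 10 genes that rest on this array are given with and without it. Some values of pathway genes are given only with it.

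Of the 10 genes, 7 were bright enough to be tested, that is, at least 0.5 of a probe's spots were marked good on at least 6 of the 12 arrays. These were Cd36, Fabp1, Fabp2, Acsl5 and Dgat1, marked good on 12 arrays, Mogat2 on 11 and Apoa1 on 10. The genes of chylomicron assembly were near background. Apob, the structural protein of the chylomicron, Mttp, which loads lipid onto it, and Apoa4, an apolipoprotein of chylomicrons, were marked good on no array. Apoa4 exceeded the 95th percentile of the negative control spots on 7 arrays, Apob on 6 and Mttp on 1. Their levels ran from 5.90 to 6.51 for Apoa4, from 5.95 to 6.36 for Apob and from 5.67 to 6.07 for Mttp over the 12 arrays, and they were not well above background, so no difference was tested for them.

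The fatty acid binding proteins Fabp1 and Fabp2, which carry fatty acids through the cytosol, varied most with the position genes. Hoxb13 was between 5.83 and 9.32 on 6 arrays (high protein replicates 3 and 4, normal protein replicates 3 to 6) and at 12 or above, up to 12.56, on the other 6. Hoxb6 was between 10.82 and 10.95 on 3 arrays (high protein replicates 3 and 4, normal protein replicate 6) and at most 7.49 on the other 9. The arrays thus formed separate clusters, and levels are given by cluster in place of a correlation, a choice made after seeing the data. Because the position genes were named when the members were chosen, no test was made of these levels.

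The promoters of these genes, from 250 bases before to 50 bases after the gene start, are shown because the levels of both genes parted with Hoxb13, as described after them. They are RefSeq sequence of the GRCr8 build on the plus strand. Fabp1 lies at chr4:104749090-104749389, and its capitals mark the CDX motif TTTATG, read on the minus strand. Fabp2 lies at chr2:213724379-213724678, and its capitals mark the GATA motif AGATAA, read once on each strand.
Fabp1: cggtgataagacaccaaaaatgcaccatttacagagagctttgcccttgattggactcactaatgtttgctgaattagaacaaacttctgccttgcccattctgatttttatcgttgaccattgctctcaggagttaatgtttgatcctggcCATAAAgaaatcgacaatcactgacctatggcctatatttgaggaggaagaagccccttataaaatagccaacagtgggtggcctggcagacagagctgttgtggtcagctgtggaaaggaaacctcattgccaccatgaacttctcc
Fabp2: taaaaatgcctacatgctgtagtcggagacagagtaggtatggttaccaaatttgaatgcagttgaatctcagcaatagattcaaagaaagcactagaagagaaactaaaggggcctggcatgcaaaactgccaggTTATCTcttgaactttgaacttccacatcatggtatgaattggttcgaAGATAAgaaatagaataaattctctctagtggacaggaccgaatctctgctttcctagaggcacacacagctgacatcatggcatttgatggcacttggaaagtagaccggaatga
The CDX motif of Fabp1 began 98 bases before the gene start, and the GATA motifs of Fabp2 began 114 and 66 bases before it. RefSeq promoters were at hand for 5 of the 10 genes (Cd36, Fabp1, Fabp2, Acsl5 and Apoa4), and each of these motifs occurred in 1 of the 5. Over 33469 promoters of the same length, 12.7% held the CDX motif and 11.6% the GATA motif on either strand. The motifs CAAAGTCCA (HNF4), CAAAGGTCA (part of a direct repeat bound by nuclear receptors) and GTTAATNAT (HNF1) were in none of the 5 windows. They were in 0.391%, 0.424% and 0.747% of all promoters. Only these exact letters were searched, with N for any base. Sites spelled otherwise were not counted, so their absence cannot be read from this. No 2 of these motifs overlapped in either window.

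Fabp1, the liver-type binding protein, was at 9.59 to 12.69 (median 11.29) on the 6 arrays with Hoxb13 below 10, against 7.31 to 8.91 (median 8.56) on the 6 with Hoxb13 above 10. It was at 12.11, 12.48 and 12.69 on the 3 arrays with high Hoxb6, against 9.59, 10.31 and 10.47 on the 3 arrays on which both genes were low. Fabp1 thus took 3 separate ranges over the 12 arrays, with the highest level where Hoxb6 was high. The gap between the ranges was 1.65 by Hoxb6 and 0.68 by Hoxb13. The gap by Hoxb13 widened to 1.41 without normal protein replicate 3 and narrowed to 0.16 with median scaling of the arrays in place of quantile normalization.

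Fabp2, the intestinal-type binding protein, was at 9.74 to 12.01 (median 11.55) on the 6 arrays with Hoxb13 below 10, against 8.41 to 9.55 (median 8.89) on the 6 with Hoxb13 above 10. Unlike Fabp1, it had no separate range by Hoxb6. It stood at 9.74, 11.64 and 11.45 on the high-Hoxb6 arrays, against 12.01, 11.81 and 11.43 where both position genes were low. The 9.74 of high protein replicate 3 lay closest to the other cluster, at a gap of 0.18 that widened to 1.88 without that array. Ranges that are apart over all 12 arrays must also be apart within each diet, so the gaps within a diet are only a description. Fabp1 had a gap of 3.28 within high protein and 0.68 within normal protein. Fabp2 had one of 0.38 within high protein and 1.88 within normal protein.

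**Figure D1:**
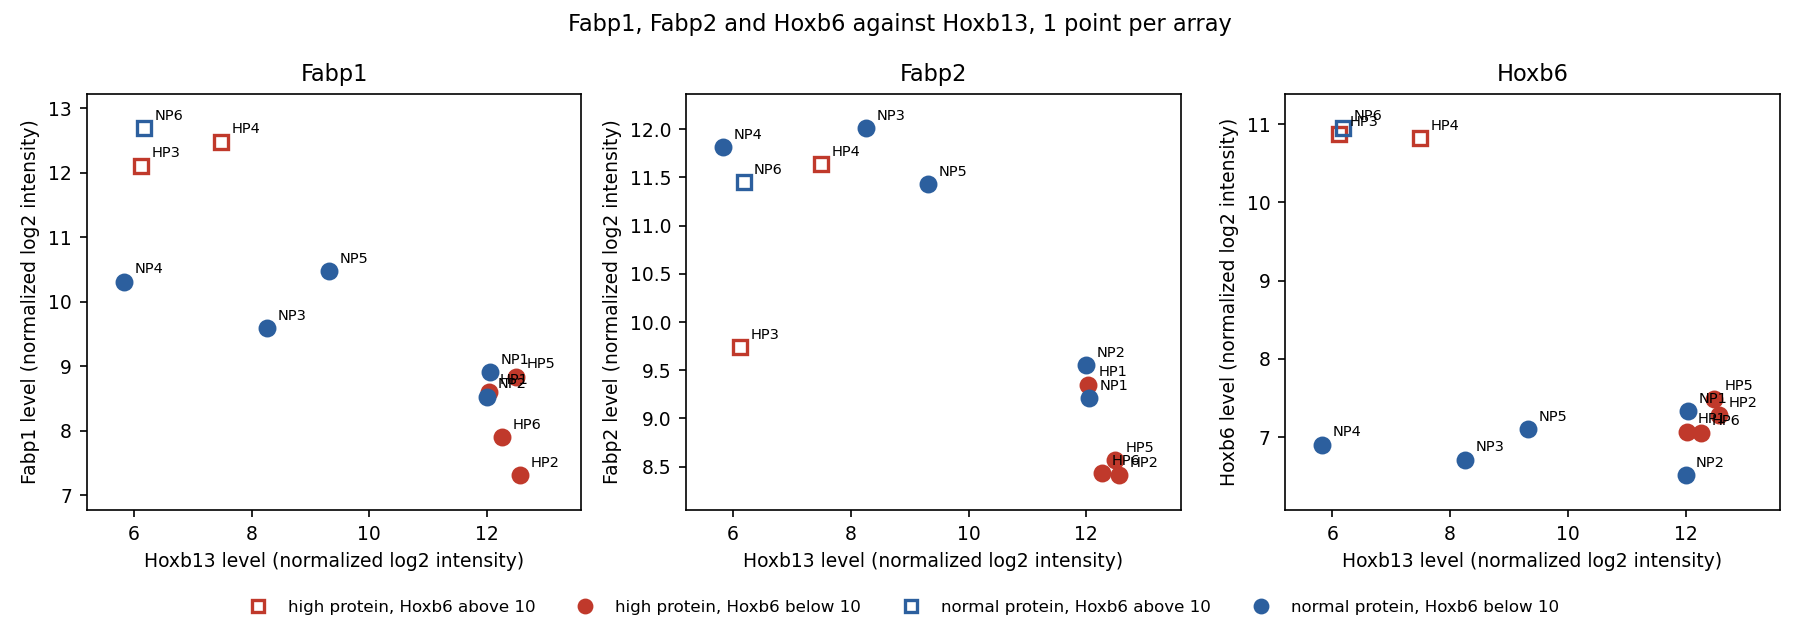
Fabp1, Fabp2 and Hoxb6 levels (normalized log2 intensity, vertical axes) against Hoxb13 (horizontal axes), 1 point per array, with HP for high protein, NP for normal protein and the replicate number. Fabp1 and Fabp2 are higher on every array with Hoxb13 below 10, and Fabp1 is highest on the 3 arrays with high Hoxb6 (open squares).

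Of the 7 tested genes, these 2 were higher on all arrays with Hoxb13 below 10 without overlap, beside 1.68% of 10449 tested genes. None of the 7 was lower there without overlap, and the share of all tested genes that were lower was not taken. Fabp1 alone was higher on all 3 arrays with high Hoxb6, beside 2.01% of tested genes. The members were chosen with this pattern known, so nothing is read from these counts. Acsl5 was at 8.79 to 9.13 (median 8.91) on arrays with Hoxb13 below 10, against 9.05 to 9.49 (median 9.31) on those with Hoxb13 above 10, and the ranges overlapped. Within each diet they did not overlap, though on high protein they all but met. Acsl5 was at 8.93 and 9.13 against 9.14 to 9.49 on high protein, and at 8.79 to 8.95 against 9.05 and 9.36 on normal protein. Mogat2 was at 6.73 to 7.25 (median 7.11) with Hoxb13 below 10, against 6.65 to 7.08 (median 6.69) above. Cd36, Dgat1 and Apoa1 overlapped as well. Within high protein alone, Mogat2 was higher and Apoa1 lower without overlap on the 2 arrays with Hoxb13 below 10. Mogat2 was at 6.73 and 7.04 there, against at most 6.71 on the others, so its ranges all but met. The 7.04 came from a spot not marked good, and those 2 Apoa1 spots were not marked good either. Within normal protein alone, Dgat1 was higher without overlap with Hoxb13 below 10. The share of all tested genes that part so within a diet was not taken. In bulk RNA such as this, fewer cells of a type and less RNA per cell cannot be told apart. Each of the 3 slides held arrays of both Hoxb13 clusters and 2 arrays of each diet.

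The diets were not evenly spread over these clusters. Hoxb13 was above 10 on 4 of 6 high-protein arrays and on 2 of 6 normal-protein arrays, and the 3 arrays with both genes low were all normal protein. Diet was compared over all tested genes with limma, and a gene was called past a Benjamini-Hochberg adjusted p of 0.05. None of the 7 genes was called, and 0% of the 10451 tested genes were. At an unadjusted limma p under 0.05, Fabp2 and Mogat2 were below normal protein, 2 of 7 members, beside 6.64% of all tested genes (694 genes, 383 higher and 311 lower on high protein). The smallest adjusted p over all genes was 0.68. The difference was below 0 for 6 of the 7 genes and above 0 for Acsl5, with a median of -0.32, where 48.5% of all tested genes were below 0 and the median was 0.005. Without normal protein replicate 6 it was below 0 for 4 of the 7 genes, with a median of -0.02, where 48.8% of all tested genes were below 0 and the median was 0.005.

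Fabp2 had the largest diet difference of the 7. On high protein its lowest, median and highest levels were 8.41, 8.96 and 11.64, against 9.21, 11.44 and 12.01 on normal protein. The ranges overlapped widely, and 5 of 6 high-protein arrays lay below the normal-protein mean. The means were 9.36 ± 1.25 on high protein and 10.91 ± 1.21 on normal protein (SD, n = 6 each), a difference of -1.55 ± 0.63 (SE), or 0.34 times the intensity. The 95% interval was -2.91 to -0.20, the unadjusted limma p 0.027 and the adjusted limma p 0.71. An exact two-sided permutation test gave an unadjusted p of 0.058. Within slides 1, 2 and 3 the difference was -1.73, -1.41 and -1.53. With Hoxb13 and Hoxb6 in the fit it was -0.78 ± 0.49, with an interval of -1.86 to 0.29. With a single position score in the fit instead (the Hoxb13 level less the average level of Hoxb6 and Hoxb7), it was -1.39 ± 0.43, with an interval of -2.33 to -0.45 and an adjusted limma p of 0.46.

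Fabp1 spanned 5.38 log2 units over the 12 arrays, the widest range of the 7. On high protein it was at 7.31, 8.72 and 12.48 (lowest, median, highest), against 8.53, 9.95 and 12.69 on normal protein. The ranges overlapped over most of their length, and the lowest levels were on high protein. The means were 9.54 ± 2.20 on high protein and 10.08 ± 1.49 on normal protein (SD, n = 6 each). They differed by -0.54 ± 0.96 (SE, adjusted limma p 0.90), or by -0.02 ± 0.91 without normal protein replicate 6. Within slides 1, 2 and 3 the difference was -1.29, -1.39 and 1.05. With both position genes in the fit it was -0.66 ± 0.35, and the interval narrowed from between -2.61 and 1.52 to between -1.42 and 0.11. With the single position score it was -0.22 ± 0.30.

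**Figure D2:**
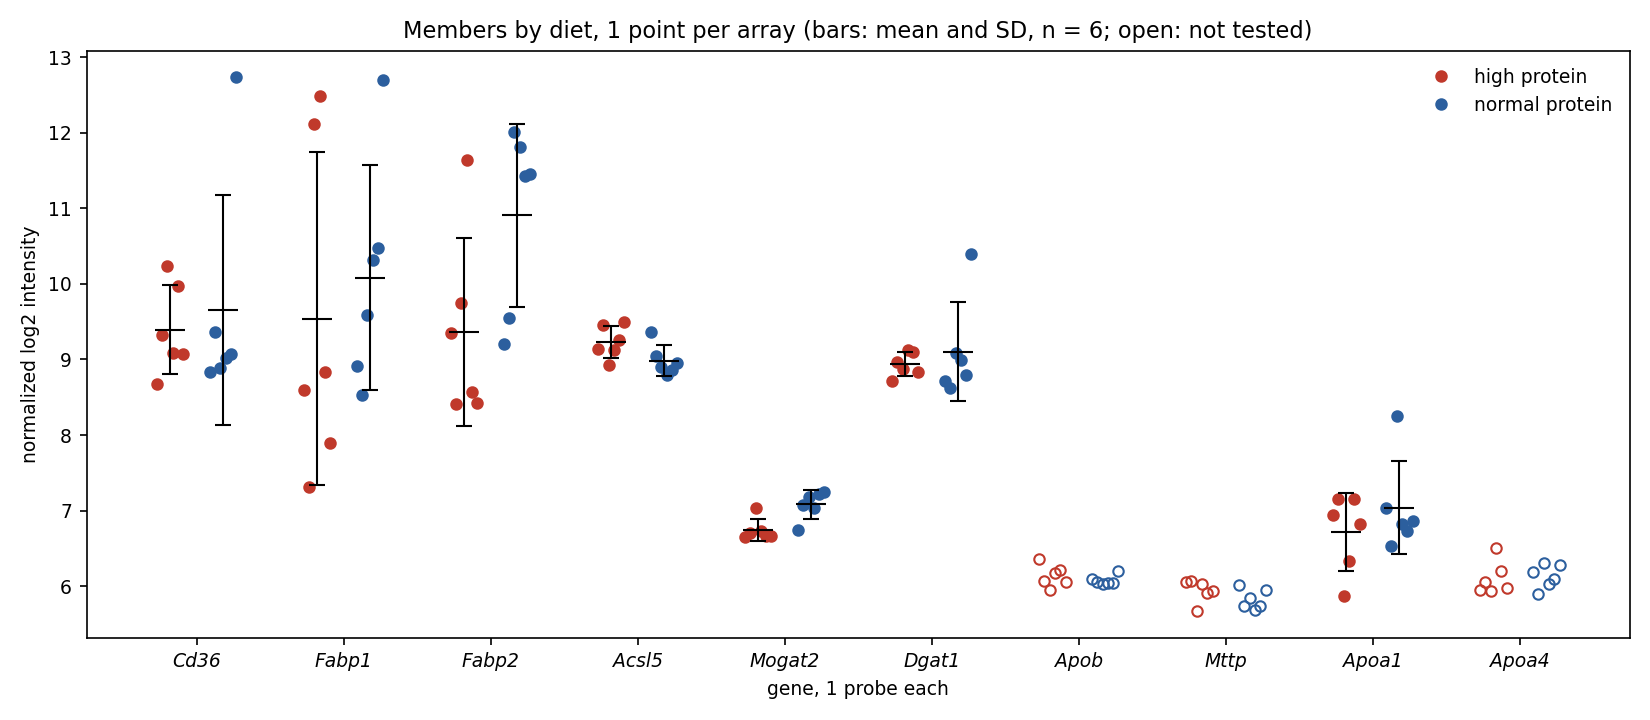
Normalized log2 intensity of each of the 10 genes on high protein (left of each pair) and normal protein, 1 point per array, with mean and SD for the 7 tested genes and open points for the 3 not tested. The diets overlap for every gene, and levels of different genes are not comparable on this scale.

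Cd36, the fatty acid translocase of the cell surface, had its highest level on a single array. On high protein it was at 8.68, 9.20 and 10.23 (lowest, median, highest), against 8.84, 9.04 and 12.73 on normal protein. The 12.73 belonged to normal protein replicate 6 and was 5.67 times the intensity of the next array, while the other 5 normal-protein arrays averaged 9.04 ± 0.20 (SD). The diet difference was -0.26 ± 0.59 (SE, adjusted limma p 0.93) with that array and 0.35 ± 0.25 (adjusted limma p 0.75) without it. The direction turned with the array. A second Cd36 probe gave 11.55 on normal protein replicate 6, and 12.10 on high protein replicate 1, a spot that was not marked good. Its diet difference was 0.43 ± 0.83 (SE, adjusted limma p 0.91). That difference was -0.24 ± 0.65 without high protein replicate 1, 1.07 ± 0.66 without normal protein replicate 6 and 0.40 ± 0.22 without both, so its direction rests on these spots. The rat genome holds a neighbouring near copy, Cd36l1, which was at 11.58 on normal protein replicate 6 and at most 8.80 on the other arrays. Whether the probes tell the copies apart was not tested, and Cd36 values are uncertain in that respect.

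Dgat1, which joins a fatty acid to diacylglycerol in the last step of triglyceride synthesis, stood out on the same array. It was at 8.72, 8.92 and 9.13 (lowest, median, highest) on high protein, against 8.62, 8.90 and 10.39 on normal protein, and the 10.39 of replicate 6 was 2.40 times the next array. The diet difference was -0.17 ± 0.25 (SE, adjusted limma p 0.88) with that array and 0.09 ± 0.10 (adjusted limma p 0.83) without it. On normal protein replicate 6, Adipoq (adiponectin, a hormone of fat cells) was at 13.28, Fabp4, the binding protein of fat cells, at 13.14, Retn at 13.42 and Cfd at 14.78. The next highest array in summed adipocyte markers was high protein replicate 5, at 7590, and Cd36 there was at 9.97, the third highest of the 12 arrays. The highest other array for Cd36 was high protein replicate 3, at 10.23. The part of the adipocyte markers in these levels was not tested. Macrophage markers, other cells that carry Cd36, had a summed level of 8640 to 17900 on high protein and 13300 to 18500 on normal protein, with 13800 on replicate 6. Endothelial markers summed to 4520 to 6870 on high protein and 4130 to 8300 on normal protein, with the 8300 on replicate 6.

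**Figure D3:**
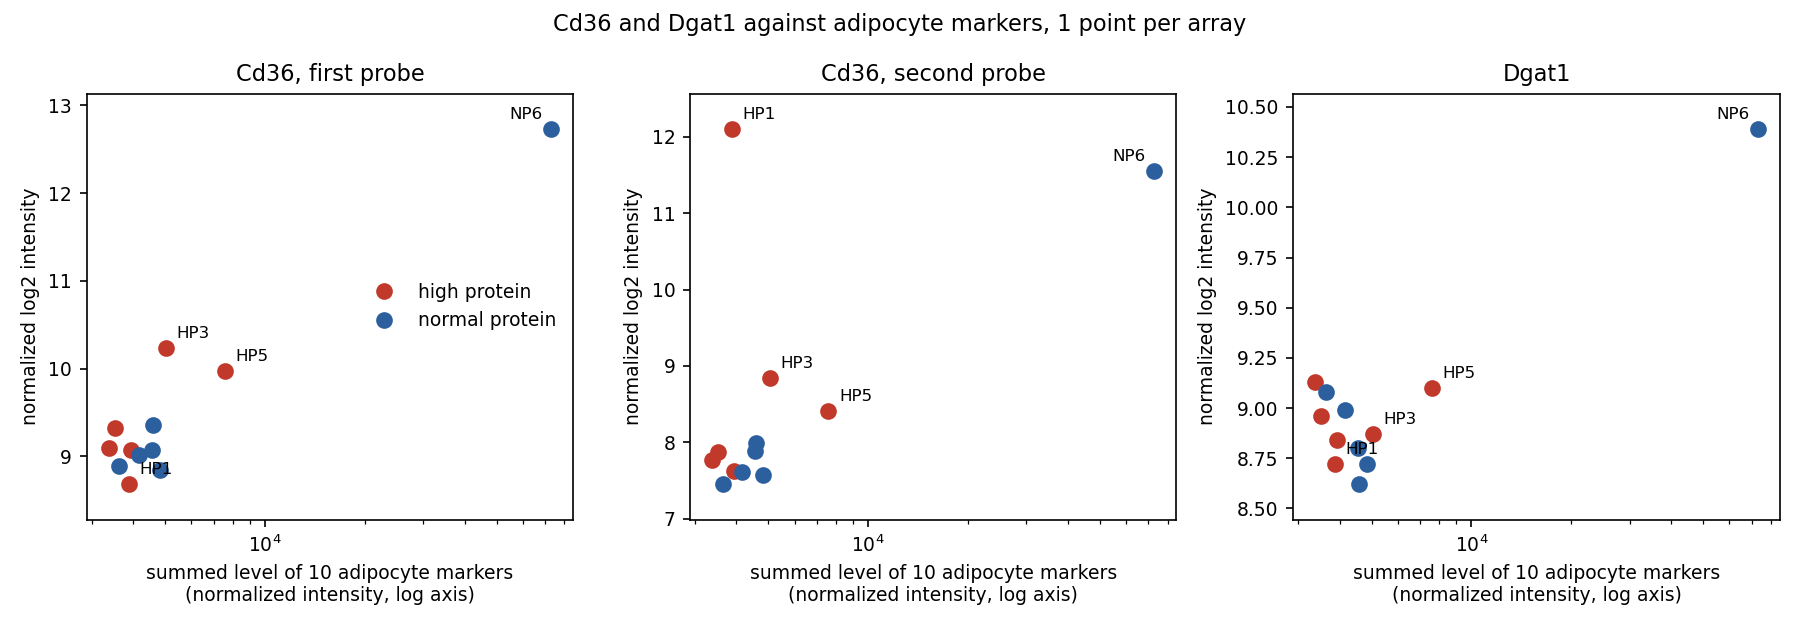
Levels of both Cd36 probes and of Dgat1 (normalized log2 intensity) against the summed level of 10 adipocyte markers (normalized intensity, log axis), 1 point per array. Normal protein replicate 6 (NP6), at 73000, is high in both, and the second Cd36 probe is also high on high protein replicate 1 (HP1), whose spot was not marked good.

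Mogat2, which adds a fatty acid to monoacylglycerol in the intestinal route of triglyceride synthesis, had the smallest unadjusted p of the 7. On high protein it was at 6.65, 6.69 and 7.04 (lowest, median, highest), against 6.74, 7.13 and 7.25 on normal protein. All 6 high-protein arrays lay below the normal-protein mean, and the ranges overlapped through high protein replicate 3, at 7.04, which lay above normal protein replicates 1 and 4, at 6.74 and 7.03. The spot of high protein replicate 3 was the one not marked good, and without it the high-protein levels ended at 6.73 and the difference was -0.40. The difference was -0.34 ± 0.10 (SE), or 0.79 times the intensity, with an interval of -0.56 to -0.12, an unadjusted limma p of 0.0048 and an adjusted limma p of 0.68. By the exact two-sided permutation test the unadjusted p was 0.0065. Within slides 1, 2 and 3 the difference was -0.28, -0.54 and -0.20, with both position genes in the fit -0.29 ± 0.11, and with the single position score -0.32 ± 0.09. The probe was dim, with a signal of 44 to 100 intensity units over background, and a second Mogat2 probe was marked good on no array.

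Acsl5, an acyl-CoA synthetase that activates fatty acids, had 10 spots on each array and ran over 0.71 log2 units in all. It was at 8.93, 9.20 and 9.49 (lowest, median, highest) on high protein, against 8.79, 8.93 and 9.36 on normal protein. The SD over the 10 spots of an array was 0.16 to 0.36, and the SD of their averages was 0.21 over high-protein arrays and 0.20 over normal-protein arrays. The difference was 0.25 ± 0.12 (SE, adjusted limma p 0.73), with 5 of 6 high-protein arrays above the normal-protein mean, 0.08 ± 0.11 with both position genes in the fit and 0.22 ± 0.10 with the single position score. Apoa1, the main protein of high-density lipoprotein, was at 5.87, 6.88 and 7.16 on high protein, against 6.53, 6.84 and 8.25 on normal protein. Normal protein replicate 3, at 8.25, was the only array above 7.16 for Apoa1, and the difference was -0.32 ± 0.29 (SE, adjusted limma p 0.81), or -0.08 without that array. Apoa1 was dim, and its difference was -0.90 with plain background subtraction, -1.01 with 75th percentile scaling of the deposited signal and -1.56 in the value table with its IDs moved.

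**Figure D4:**
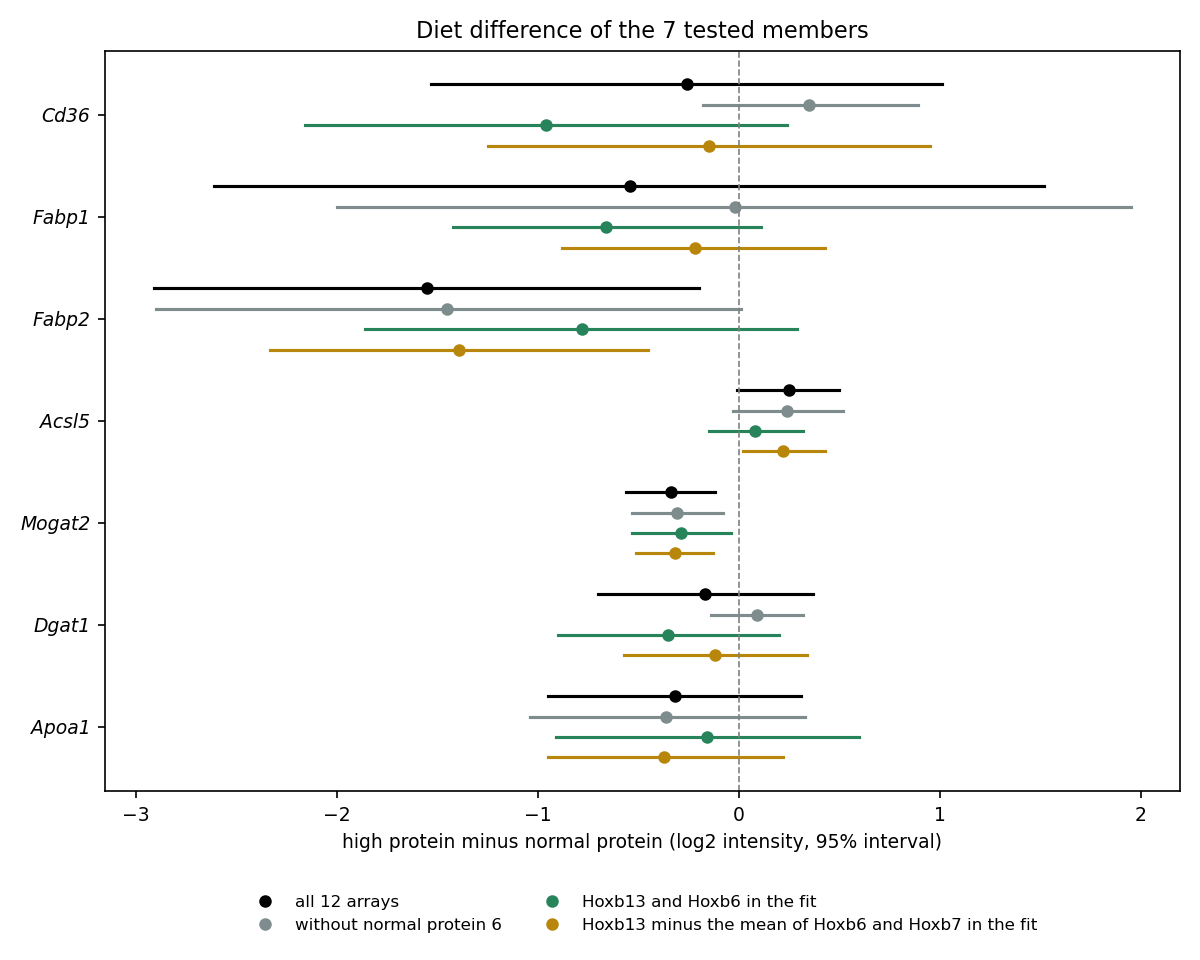
Difference between the diets, high protein minus normal protein, for the 7 tested genes (log2 intensity, point and 95% interval) over all 12 arrays, without normal protein replicate 6, with Hoxb13 and Hoxb6 in the fit, and with the single score of Hoxb13 less the average of Hoxb6 and Hoxb7. Cd36 and Dgat1 change direction without normal protein replicate 6, and Fabp2 lies at -1.55, -1.45, -0.78 and -1.39 under the 4 settings.

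The wider fat-handling pathway was read from 7 lists of 118 genes, of which 69 were tested and 0 passed the adjusted threshold for diet. At an unadjusted p under 0.05, Plpp2, a lipid phosphatase, was higher by 0.23, and Agpat1, an acyltransferase of triglyceride synthesis, and Cdx2, a homeobox regulator of intestinal identity, differed by -0.29 and -0.44. These are 3 of 69 genes, beside 6.64% of all tested genes, so their number is not a result about the lists. Plpp2 is outside the rule for named genes and was chosen after its value was seen. In the list of uptake and activation (8 of 12 tested, median difference -0.14, or -0.04 without normal protein replicate 6), the acyl-CoA binding protein Dbi was at 11.54 ± 0.20 on high protein and 11.75 ± 0.36 on normal protein (SD, n = 6 each). The acyl-CoA synthetase Acsl3 was at 9.01 ± 0.30 on high protein and 9.05 ± 0.42 on normal protein, and Acsl1, another, at 9.37 ± 0.37 on high protein and 9.80 ± 1.54 on normal protein. In the list of triglyceride and cholesteryl ester synthesis (11 of 18 tested, median -0.05), Agpat4 differed by -0.05 ± 0.13 (SE) and Plpp1 by -0.13 ± 0.15.

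Among lipoprotein assembly genes (11 of 21 tested, median -0.05), Apoe was at 12.11 ± 0.56 on high protein and 12.43 ± 0.41 on normal protein (SD, n = 6 each). P4hb, the partner subunit of Mttp, differed by -0.05 ± 0.11 (SE), and the vesicle coat gene Sec24c by -0.01 ± 0.07. P4hb and Sec24c also serve the export of other proteins. Of the regulators (11 of 22 tested, median -0.02), Cdx2 was at 11.63 ± 0.51 on high protein and 12.07 ± 0.15 on normal protein (SD, n = 6 each). Its relative Cdx1 was at 9.91 ± 0.28 on high protein and 10.21 ± 0.24 on normal protein, and Pparg, a nuclear receptor activated by fatty acids, at 9.83 ± 0.62 on high protein and 10.25 ± 0.80 on normal protein. Of the PPAR target genes (13 of 17 tested, median -0.11), the mitochondrial dehydrogenase Acadl differed by -0.19 ± 0.13 (SE). The named genes of these lists had an adjusted limma p between 0.70 and 0.97.

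Normal protein replicate 6 was also the highest array for part of the pathway. Of the 69 tested pathway genes, 24 were highest on that array, where 14.6% of all tested genes were, and 10 were more than 2-fold above the next array there, where 1.33% of all tested genes were. Lipoprotein assembly (2 of 11) and PPAR target genes (2 of 13) had few genes highest there and none more than 2-fold above the next array. Of these 10, 4 are lipid droplet and lipolysis genes (10 of 16 tested, median -0.01), among them G0s2, an inhibitor of lipolysis, at 13.19 against 8.25 to 9.73 on the other arrays. In the same list the droplet coat gene Plin2 was at 9.79 on that array and differed by 0.08 ± 0.16 (SE) between diets, and Bscl2 differed by 0.12 ± 0.11. Acsl1 was at 12.91 on normal protein replicate 6 and between 8.90 and 10.04 elsewhere, and its diet difference was -0.44 ± 0.57 with that array and 0.18 without it. Of the efflux and lipase genes (5 of 12 tested, median -0.13, or 0.09 without that array), Angptl4, an inhibitor of lipoprotein lipase, was at 10.87 on that array and between 6.41 and 7.94 elsewhere. Abcg1, a sterol exporter, was at 9.70 there, and Lrp1, a receptor for lipoprotein remnants, differed by 0.04 ± 0.10 between diets.

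The genes whose pattern over the 12 arrays was most like that of each wide-ranging member differed by member, by Pearson's r given as a description with no test. For Fabp1 they were Spmip11 and Gstk1 (r 0.96), Bpifb9a (0.95), Bpifb2 and Flrt3 (0.94), and r was 0.92 to 0.95 for these without normal protein replicate 6. Bpifb9a spanned 6.54 to 14.32. For Fabp2 they were Hsd17b6 (0.96), Hsd3b2 (0.95), Tubal3, Tph1 and Serpinb6a (0.94). For Cd36 they were Cd36l1, Fabp4 and Angptl4 (0.98), Bnip3 and S100b (0.97), and without normal protein replicate 6 these values were 0.91, 0.88, 0.85, 0.85 and 0.84. The points share the arrays and their clusters, so r here restates which arrays are high.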

How the data were processed

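Scanning was done at 532 nm, with the photomultiplier set to 600 and GenePix Pro 6.1.0.4, per the file headers. The deposited files per array hold intensity, the mean pixel of each spot and the median of its local background, not normalized. As deposited, they also give the percent of saturated pixels and a flag score per spot (100 for good), both set by the scanner software. The series value table holds log2 values per the labels, and RMA is named, without a version, in the submitters' processing notes. Its IDs are displaced by 1 row: moved by 1 row, it correlated with the scanner values at 0.996 to 0.999 (-0.018 to 0.003 as given), and it served as an alternative only so moved.

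Background was corrected with normexp (offset 50), control spots were left out, and arrays were quantile normalized together. Spots of a probe were averaged. The probe of highest mean stood for a gene. Probes were named by the array, or by RefSeq accession (18355 of 22031 matched). Of 30367 probes, 11737 named probes of 10451 genes were tested, by limma 3.58.1 in R 4.3.3 (lmFit, eBayes, Benjamini-Hochberg over all tested genes). The slide, as the file headers give it, was taken as the batch. It was not in this fit and entered only the alternatives, as a block or through fits within each slide.

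The members and lists were chosen with earlier results of these data known. Named genes are the 10 members, Hoxb13 and Hoxb6, the 3 tested genes of highest mean in each pathway list, and the 5 genes most like each of the 3 members of widest range. Some genes that this rule names are not reported here. Alternatives covered background, scaling, filter, probe choice, slide, array weights, replicate numbers, position covariates and leaving out each array. The exact permutation test of each tested member ran over all 924 assignments of arrays to the diets. Summed marker levels are sums of linear normalized intensities.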

Additional observations from a re-analysis of the deposited data

Results flagged for a closer look

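In 16 groups, each of 1 probe on the 6 arrays of 1 diet, 6 levels lay far from the rest by Dixon's test. Chance gives such a level in about 5% of independent groups. These groups share the same arrays and are not independent, and normal protein replicate 6 gave more than 1 of the levels. Cd36 was at 12.73 on normal protein replicate 6, with the nearest other normal-protein array at 9.36. The second Cd36 probe was at 12.10 on high protein replicate 1 (nearest 8.84), a spot that was not marked good and had 3% of its pixels saturated, and at 11.55 on normal protein replicate 6 (nearest 7.99). Dgat1 was at 10.39 on normal protein replicate 6, with the nearest at 9.08. The part of the adipocyte markers of that array in these levels was not tested. Mogat2 was at 7.04 on high protein replicate 3, with the nearest high-protein array at 6.73. Apoa1 was at 8.25 on normal protein replicate 3, with the nearest at 7.03.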

How the results depend on the processing

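No member passed the diet threshold under any of 30 alternatives, and the number of genes past it was 0 except within slide 3, where it was 1 (Bik, 2 arrays a diet). Fabp2, Acsl5 and Mogat2 kept their direction throughout, at -1.86 to -0.78, 0.08 to 0.40 and -0.69 to -0.20 without counting single arrays left out. The Cd36 difference turned to 0.08 with its probes averaged, 0.13 within slide 1, 0.91 within slide 3 and 0.04 with array weights. Leaving out single arrays gave -0.43 to 0.35 for Cd36, -0.26 to 0.09 for Dgat1 and -1.13 to -0.02 for Fabp1, the highest values in each case without normal protein replicate 6. With that array left out and both position genes in the fit, an alternative added after seeing the data, Cd36 was at 0.16, Dgat1 at 0.19 and Apoa1 at 0.15. Within slide 3 Fabp1 was at 1.05 and Dgat1 at 0.18. The causes were not tested, beyond the fewer arrays within a slide.

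Same-numbered arrays of the 2 diets correlated at -0.11 to 0.40 in their deviations, over 0.1 for 3 of 6 numbers, and 3 of 6 high-protein arrays correlated best with their own number, so the numbers were not taken as pairs. With a replicate block, 0 genes and 0 members passed, and 813 genes had an unadjusted p under 0.05 against 694 without it. Dim probes limit Mogat2 and Apoa1, and Apob, Mttp and Apoa4 could not be compared.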

Other observations

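Fabp6, the bile acid binding protein of the ileum, was marked good on 4 arrays and was too dim to be tested. It was at 6.94 and 7.27 on high protein replicates 3 and 4 and at 8.81 on normal protein replicate 6, the 3 arrays with high Hoxb6, against 6.15 to 6.68 on the other 9. It was named after its values were seen.

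The pathway genes Mgll and Pparg were higher without overlap both on the 6 arrays with Hoxb13 below 10 and on the 3 with high Hoxb6, as Fabp1 was. Mgll splits monoacylglycerol and Pparg is a nuclear receptor activated by fatty acids. Mgll was at 7.78 and 7.75 on high protein replicates 3 and 4 and at 9.28 on normal protein replicate 6, and it was the only one of the pair more than 2-fold above all other arrays there. In all, 3 of 69 tested pathway genes were higher without overlap with Hoxb13 below 10, beside 1.68% of all tested genes. Another 3 of the 69 were higher without overlap with Hoxb13 above 10. The share of all tested genes that did so was not taken. By Hoxb6, Acsl4, Sar1a, Mgll, Abcg1 and Pparg of the 69 were higher without overlap on the 3 arrays. That is a larger share than the 2.01% of all tested genes, and no list held more than 1 of them. No direction of the pathway is read from these counts. Mgll, Acsl4 and Sar1a were named after their values were seen.

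Of the other cell types, Paneth cell markers (4 of 8 tested) summed to 7780 to 34800 on high protein and 8250 to 33700 on normal protein. The highest levels in this sum were of Mptx1 (up to 14.42), Pla2g2a (up to 13.89) and Lyz2, which was also among the macrophage markers. Defa5 was marked good on no array and Defa24 on 3, so the sum is no measure of Paneth cells. T and B cell markers (2 of 10 tested) summed to 801 to 1410 on high protein and 931 to 1150 on normal protein. Enteric glia and neuron markers (6 of 10 tested) summed to 1330 to 2510 on high protein and 1570 to 4950 on normal protein, and liver markers (2 of 7 tested) to 1580 to 3160 on high protein and 1930 to 3790 on normal protein, with normal protein replicate 6 highest for both.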
